A study of Drosophila melanogaster with 24 samples.

Results

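CLOCK (CLK) is a bHLH-PAS transcription factor that binds DNA together with CYCLE (CYC) and turns on the genes of the Drosophila melanogaster circadian clock. Among these are period (per) and timeless (tim), whose products later block CLK and CYC, and the bZIP genes vrille (vri) and Par-domain protein 1 (Pdp1), whose products act back on Clk. Heads hold the brain clock neurons, and also photoreceptors and fat body, which have clocks of their own. The data described here are the CLK binding sites called in heads by chromatin immunoprecipitation and sequencing (ChIP-seq), in which DNA crosslinked to a protein is recovered with an antibody and sequenced.

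The sites were all 1016 peaks of the deposited CLK head list, out of 7810 peaks in the 6 lists of the series, which cover CLK and CYC in head, testis and ovary. The list came from 2 libraries made with an antibody against GFP and 2 input libraries (sheared chromatin set aside before the antibody was added), labelled CLK and head. Each replicate held 200 heads taken at ZT10, which is 10 h after lights on. The fly genotypes, the way in which CLK carried GFP and the sex of the flies are not given in the labels, and no GFP library from flies without a tag was analysed here. The CYC head list (394 peaks), the CLK testis list (2491) and the CLK ovary list (351) served for comparison. The labels give 2 GFP and 2 input libraries for each of them as well.

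A peak was known only by its chromosome, start and end, since the lists gave no height, fold enrichment or p. There was 1 list for both replicates, so spread between replicates could not be measured, and read depth was unknown. Every test below compares lists of peaks or kinds of peaks with Fisher's exact test, two-sided, with Benjamini-Hochberg adjustment. Intervals are 95% exact (Clopper-Pearson) intervals, which cover the counting of peaks only. Positions are in build dm6 as deposited, and genes are those of NCBI RefSeq for the same assembly.

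CLK sites in head were narrow and spread over all arms much as genes are. The median width was 285 bp, the middle of the list ran from 235 to 373 bp, and the range was 199 to 2020 bp. Only 83 peaks were 500 bp or wider (8.17%, interval 6.56 to 10.0%), 15 reached 800 bp and 4 reached 1000 bp. The share of 500 bp or wider was 18.8% for CLK in ovary (CLK head minus CLK ovary -10.6 points, Fisher's exact test, adjusted p = 3.19e-07). For CLK in testis (8.11%) and CYC in head (10.4%) the difference did not pass (exact test, adjusted p = 0.946 and 0.220). The arms held 198 (2L), 222 (2R), 201 (3L), 244 (3R), 4 (chromosome 4) and 147 (X) peaks. This was 66.9 peaks for 1000 protein-coding genes on X and 71.8 to 77.9 on 2L, 2R, 3L and 3R. X held 14.5% of the peaks (12.4 to 16.8%) and 15.8% of the genes. The X share was 13.1 points above that of CLK in testis (34 of 2426, Fisher's exact test, adjusted p = 1.78e-48) and 17.8 points below that of CLK in ovary (107 of 332; CLK head minus CLK ovary -17.8 points, adjusted p = 2.70e-11). Against CYC in head (41 of 394) the difference was 4.06 points and did not pass (exact test, adjusted p = 0.0538).

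Most CLK sites in head lay within 1 kb of a gene end. The share of the genome that lies so close to an end was not measured, so no preference for ends is read from this. A peak was called a gene-end site when its midpoint lay within 1 kb of either end of a protein-coding gene. The annotation used gave no strand, so a transcription start and the far end of a gene were not told apart. There were 647 gene-end sites (63.7%, 60.6 to 66.6%), 300 sites inside genes and over 1 kb from any end (29.5%, 26.7 to 32.4%), and 69 sites outside genes and over 1 kb away (6.79%, 5.32 to 8.52%). The median distance to the nearest end was 436 bp. Within 100 bp of an end lay 190 midpoints (18.7%), and within 250 bp 396 (39.0%). The nearest midpoints on either side of the 1 kb limit were at 999.5 bp and 1018 bp. The 3 classes had nearly equal median widths of 285, 285 and 294 bp.

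**Figure D1:**
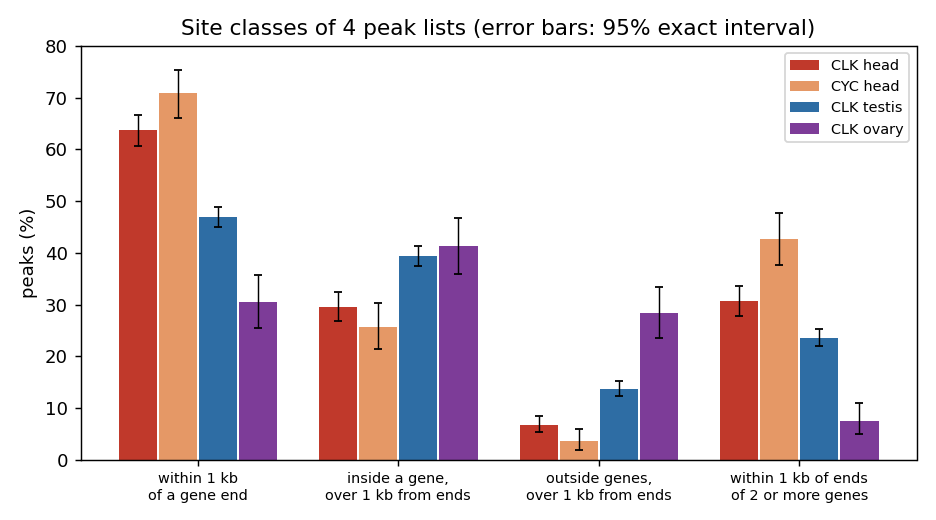
Share of peaks (%, vertical axis) in 3 site classes, and near the ends of 2 or more genes, for the CLK head, CYC head, CLK testis and CLK ovary lists, with 95% exact intervals as error bars. The CLK head list lay within 1 kb of a gene end in 63.7% of peaks, between CYC head (70.8%) and CLK testis (46.9%), with CLK ovary lowest at 30.4%.

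Gene-end sites made up a larger share in head than in the gonads. CLK in head exceeded CLK in testis (1138 of 2426 peaks, 46.9%) by 16.8 points (exact test, adjusted p = 7.70e-19) and CLK in ovary (101 of 332, 30.4%) by 33.3 points (adjusted p = 2.52e-25). CYC in head had a higher share still, at 279 of 394 (70.8%), and the difference was -7.13 points for CLK minus CYC (exact test, adjusted p = 0.0171). That last call was lost when genes of all biotypes were used (-5.12 points, exact test, adjusted p = 0.0660) and in the widest 50% of each list (-7.21 points, adjusted p = 0.108). With a window of 3 kb the difference from CLK in testis turned to -2.62 points and did not pass (exact test, adjusted p = 0.0814). The lists also differed in how close to ends their sites lay. Within 250 bp of an end were 39.0% of CLK head midpoints, 47.7% of CYC head, 10.6% of CLK testis and 7.23% of CLK ovary midpoints.

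**Figure D2:**
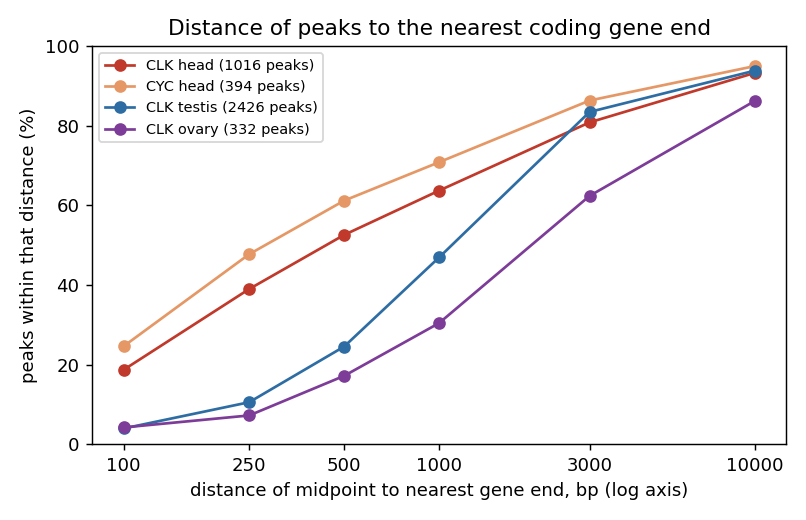
Share of peaks (%, vertical axis) whose midpoint lay within a given distance of the nearest coding gene end (bp, logarithmic horizontal axis) for 4 lists, on the main chromosome arms. The 2 head lists lie above the 2 gonad lists up to 1000 bp, where CLK head stands at 63.7%, and CLK testis is above CLK head at 3 kb (83.4 against 80.8%).

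Many of the gene-end sites lay near more than 1 gene. Of the 647, 335 were near 1 gene, 260 near 2 and 52 near 3 or more, with 4 as the most. Sites near the ends of at least 2 genes were therefore 30.7% of the list (27.9 to 33.6%), against 42.6% for CYC in head (adjusted p = 4.39e-05), 23.6% for CLK in testis (adjusted p = 2.78e-05) and 7.53% for CLK in ovary (adjusted p = 2.09e-19, all by Fisher's exact test). With a window of 3 kb the CLK testis difference turned from 7.13 to -5.88 points and passed in that direction (exact test, adjusted p = 0.00255). The midpoint of 449 gene-end sites was inside an annotated gene (69.4%) and that of 198 was outside. A wide peak of this kind lay between CG12301 and mrn, which encodes a subunit of the transcription factor TFIIH (3L 15580324 to 15581235, 911 bp). Its midpoint was 20.5 bp from an end.

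The 300 sites deep inside genes were held by 277 genes, and 147 of these were 20 kb or longer, while 1012 of all 13922 protein-coding genes were. The class itself favours long genes, since a midpoint over 1 kb from both ends needs a gene of over 2 kb, so nothing is read from this contrast. The median distance to the nearest end was 3688.5 bp and the highest was 53861 bp. The widest 2 lay in vri (2020 and 1017 bp). Next came scrib, which encodes the cell polarity scaffold Scribble (3R 26542843 to 26543821, 978 bp), a further vri peak (945 bp), kirre and w (866 bp), CG44837 (3L 11862663 to 11863523, 860 bp) and Atx2 (3R 15410596 to 15411454, 858 bp). Atx2 encodes Ataxin-2, an RNA-binding protein that promotes translation of per mRNA. The vri peaks and that at kirre and w met CYC head peaks, and those of scrib, CG44837 and Atx2 did not. Inside sites were less frequent than for CLK in testis (39.4%) or ovary (41.3%), with differences of -9.84 and -11.7 points (exact test, adjusted p = 9.47e-08 and 0.00017). The testis difference, measured with 3 kb windows, turned to 5.99 points and passed in that direction (exact test, adjusted p = 8.93e-06), and the ovary difference (-4.67 points) did not pass. The difference from CYC in head (25.6%) was 3.89 points and did not pass (exact test, adjusted p = 0.167).

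The 69 intergenic sites ranged from near to remote. Their median distance to a gene end was 1771 bp and the median gap between the flanking genes was 10884 bp, and 12 sites lay over 10 kb from any coding gene, the farthest at 57623 bp. The intergenic share was lower than for CLK in testis (13.7%, exact test, adjusted p = 5.86e-09) and ovary (28.3%, adjusted p = 1.92e-21). It was higher than for CYC in head (3.55%, 3.24 points, exact test, adjusted p = 0.0291), a call that was lost with a window of 3 kb and in the widest 50% of each list. Of all 1016 midpoints, 33 lay inside a lncRNA gene, 14 inside an antisense RNA gene and 1 inside a miRNA gene.

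The 4 widest CLK sites in head lay at vri, tim and per. Of the 15 widest, 3 lay in vri, 2 in or at per and 1 at tim. The widest of all spanned 2020 bp in vri (2L 5302214 to 5304234), followed by tim (2L 3507123 to 3508243, 1120 bp), per (X 2684540 to 2685615, 1075 bp) and vri again (2L 5300902 to 5301919, 1017 bp). Another lay in Cipc (3R 26127920 to 26128879, 959 bp), the gene named after the mammalian CLOCK-interacting pacemaker protein, with the end of CG14556 531.5 bp from its midpoint. The remainder included a site at CG31710 and pelo, a ribosome rescue factor gene (2L 9705253 to 9706172, 919 bp). Another was at Bx, a LIM-only transcription regulator gene, and HisRS, a tRNA synthetase gene (X 18515359 to 18516260, 901 bp). A further one was inside oys, an acyltransferase gene, near CG34220 (2R 10039805 to 10040670, 865 bp).

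A peak was counted for every protein-coding gene that held its midpoint or had an end within 1 kb. In this way 1263 of 13922 genes (9.07%) had a CLK peak in head, and 978 (7.02%) had one within 1 kb of an end. Of the 1263, 135 genes had 2 or more peaks, 16 had 3 or more, and Pdp1, vri and Treh had 4 or more. Longer genes were hit more often, from 3.48% of genes up to 1178 bp long to 17.8% of genes of 5000 bp or longer. When only gene ends were counted, these shares were 3.48 and 10.4%. The counts for the larger groups of genes below are therefore given under both rules, most of them beside the median length of the list, and those of the remaining lists under the first rule. They carry no test, and the lists were chosen with earlier results of these data known. The median length of all protein-coding genes was 2163 bp.

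Pdp1, which encodes a bZIP activator of Clk, had the most peaks, with 9 of 222 to 730 bp. Of these, 6 lay in a stretch of 8.23 kb between 15.5 and 23.8 kb from the lower-coordinate end of the 55.9 kb gene, and the last lay 45 bp from the other end (3L 7866959 to 7867689, 730 bp). The 4 inner peaks at 18.3, 21.7, 22.5 and 23.8 kb met CYC peaks and the other 5 did not. In vri, the gene of the bZIP protein that represses Clk, 5 of the 6 peaks lay within 8.49 kb and the sixth lay at an end (2L 5288729 to 5289285, 556 bp). Treh, the gene of trehalase, which splits the blood sugar trehalose, had 4 peaks of 204 to 559 bp over 8.14 kb (2R 21075919 to 21084351). None of these met a CYC peak.

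The genes with 3 peaks, picked out after their values were seen, were per, Clk, Cipc, kay, mbl, SNF4Agamma, fdl, Madm, Sym, mamo, Cap-D3, CG31523 and CG46385. kay encodes the fly Fos protein, mbl the splicing factor Muscleblind and SNF4Agamma the gamma subunit of AMP-activated kinase. Madm and Sym are neighbours and shared their 3 peaks. Other peaks were also near further genes, among them the widest kay peak (436 bp), near fig. A CG46385 peak (2R 7782367 to 7782598) was also near cn, and 2 of the Cipc peaks were near CG14556. All 3 Cipc peaks met CYC peaks, as did 2 of 3 in kay, 2 of 3 at per, 1 of 3 at mbl and 1 of 3 in CG46385, and none at Clk, SNF4Agamma, fdl, mamo, Madm, Sym, Cap-D3 or CG31523. Over the whole list, 11.5% of CLK peaks met one.

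**Figure D3:**
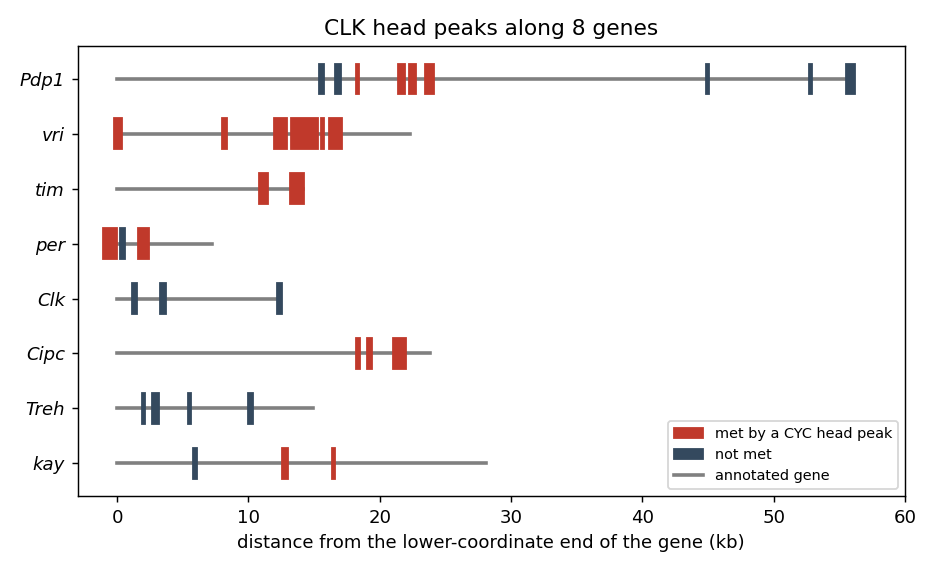
CLK head peaks (boxes, drawn to their width) along 8 genes (grey lines), with the distance from the lower-coordinate end of each gene in kb on the horizontal axis; red boxes met a CYC head peak and dark boxes did not. All peaks of vri, tim and Cipc are red, 4 of 9 at Pdp1, 2 of 3 at per and at kay, and none at Clk or Treh.

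Of the 16 core clock genes, 7 had a CLK peak in head (43.8%, against 9.07% of all genes), and 6 had one near an end (37.5%, against 7.02%). The median length of these 16 genes was 10713 bp. Besides vri, tim, per and Pdp1, they were Clk itself, sgg and jet. Clk had peaks 1.33 and 3.50 kb inside its lower-coordinate end and at the other end (3L 7775436 to 7775814, 378 bp). The kinase gene sgg had 2 narrow peaks (220 and 230 bp) deep inside its 45.6 kb. The single peak of the F-box gene jet (2L 4949876 to 4950080, 204 bp) was 194 bp outside the gene and closer to Jon25Biii, a serine protease gene, at 37 bp. The genes cyc, cwo, cry, dco, slmb, nmo, CkIIalpha, CkIIbeta and tws had none. The nearest CLK peak was 1.07 kb from tws, a phosphatase subunit gene, 2.14 kb from cwo, a bHLH repressor gene, and 17.5 kb from cyc.

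CYC was called at 117 of the 1016 CLK sites in head (11.5%, 9.62 to 13.6%), through 116 of the 394 CYC peaks (29.4%). In the pairs that met, the midpoints were 50.5 bp apart in the median, and the CLK peak was the wider in 64 of 117 pairs. CLK sites near gene ends met CYC in 65 of 647 cases (10.0%) and other CLK sites in 52 of 369 (14.1%), a difference of -4.05 points that did not pass (adjusted p = 0.0654, Fisher's exact test). With a reciprocal overlap of 50% it was -4.62 points and passed (exact test, adjusted p = 0.0178), and without the peaks at core clock genes it was -1.98 points and did not (adjusted p = 0.330). CLK sites of 373 bp or wider met CYC in 41 of 255 cases (16.1%) and the rest in 76 of 761 (9.99%), a difference of 6.09 points (exact test, adjusted p = 0.0245). Peaks at core clock genes met CYC in 14 of 26 cases and other peaks in 103 of 990. Without the core clock peaks the difference by width was 3.81 points and did not pass (exact test, adjusted p = 0.187), and it did not pass either with midpoints within 200 bp as the rule (4.66 points, adjusted p = 0.0909).

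**Figure D4:**
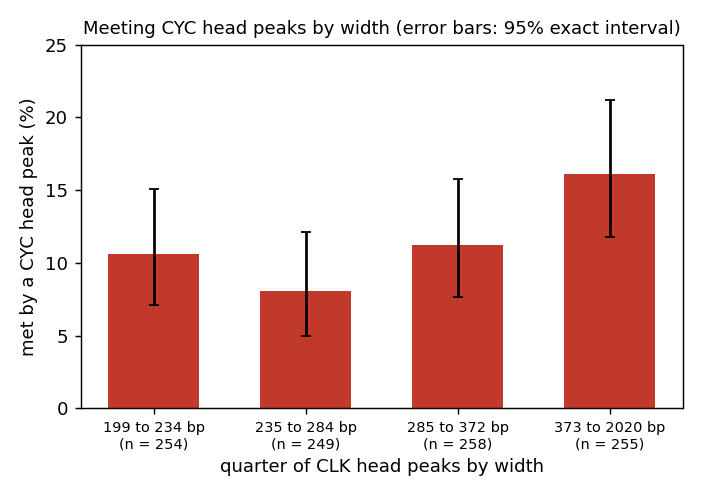
Share of CLK head peaks met by a CYC head peak (%, vertical axis) in 4 parts of the CLK list by width in bp (horizontal axis), with 95% exact intervals as error bars. The widest peaks (373 to 2020 bp) stand at 16.1% and the others, from narrow to wide, at 10.6, 8.03 and 11.2%, with overlapping intervals.

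Few CLK sites of head were also called for CLK in the gonads, though a site missing from a list is not shown to be unbound. CLK testis peaks met 29 of 1016 (2.85%, 1.92 to 4.07%), CLK ovary peaks met 3 (0.295%, 0.0609 to 0.860%), and 871 sites (85.7%) met none of the 3 lists compared. Of the gonad lists, 1.16% of the 2491 testis peaks and 0.855% of the 351 ovary peaks met a head site. The widest that met a testis peak was in the eye pigment transporter gene w, which lies within kirre in the annotation (X 2792204 to 2793070, 866 bp). A further peak at w (X 2796241 to 2796733, 492 bp) and the 2 inner peaks of Clk did as well. The other wide ones were in Con, a cell adhesion gene, at ClpX and Surf6, at Prosbeta5R2, in CG42322 and at CG13894. Of the 3 that met an ovary peak, the widest lay at Mgstl, a glutathione S-transferase gene, 40 bp from an end (X 21041972 to 21042358, 386 bp). Only 3 sites met both CYC in head and CLK in testis. Since genotypes were not given, the sites at w and Clk could not be compared with the sequence of a transgene.

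Genes of light detection were among those with CLK sites. Of 29 phototransduction genes, 10 had a CLK peak (34.5%, against 9.07% of all genes) and 8 had one near an end (27.6%, against 7.02%), with a median gene length of 3107 bp. They included the opsin genes Rh4 (200 bp) and Rh5 (292 bp), the arrestin gene Arr1 (212 bp), the light-activated channel gene trp (314 bp), the myosin gene ninaC (222 bp) and the G protein subunit gene Gbeta76C (424 bp). The others with a peak near an end were ninaB, a carotenoid oxygenase gene (329 bp), and santa-maria, a carotenoid receptor gene (264 bp). The midpoint was outside the gene at all of these except Gbeta76C. The phospholipase gene norpA and the phosphatase gene rdgC held peaks 17673.5 and 6697.5 bp from their ends. Only norpA's peak met CYC. The ninaC site was also 118 bp from Wnt10 and the santa-maria site also near Gr28a, so these counts share peaks with other genes.

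Developmental transcription factor genes were another group with CLK sites. Of 75 homeodomain genes, 22 had a CLK peak (29.3%, against 9.07% of all genes) and 18 had one near an end (24.0%, against 7.02%). Their median length was 15347 bp. The widest peak in the group was 455 bp, in ct. Near ends lay the peaks of the eye and visual system genes so (243 bp), Optix (251 bp), oc (271 bp), toe (250 bp) and Vsx1 (279 bp), and of en (364 bp), 5 bp from an end. The eye master gene ey held a peak 6824 bp inside (280 bp) that met CYC, as did the peaks of Awh and mirr and 1 of 2 in ct. Of the eye and head patterning genes with a peak, so, oc, toe and ey are also on the homeodomain list. Bx is also on the T-box and LIM-only list, and pnt on the glial list. The eye and head patterning list was chosen with earlier results of these data known, so nothing is read from its share. It had 12 of 27 members with a peak (44.4%). Of the 27, 7 had one near an end (25.9%), and the median length was 15523 bp. disco, a zinc finger gene needed for the connection of the eye to the brain, had a peak of 758 bp (X 16216920 to 16217678), 549 bp outside the gene. Its neighbour disco-r had one of 221 bp and eya, which encodes a partner of So, had 2.

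Members of other transcription factor families also had CLK sites. Of 21 nuclear receptor genes, 7 had a peak (33.3%, against 9.07% of all genes) but 3 near an end (14.3%, against 7.02%), with a median length of 22386 bp. These 7 were Hnf4, Hr3, ERR, Eip75B, knrl, kni and svp. Eip75B, Hr3 and svp had 2 peaks each. Among 20 bZIP genes, with a median length of 9343 bp, 5 had a peak (25.0%) and 3 had one near an end, with cnc, the Nrf2 homologue, and its partner maf-S besides vri, Pdp1 and kay. The maf-S site (654 bp) was also near CG11110, Polr3K and Tcs1. Of 51 bHLH genes, with a median length of 3250 bp, 7 had a peak (13.7%) and 5 near an end (9.80%, near the share of all genes). Those near an end were Clk, ss, E(spl)mbeta-HLH, emc and tx. Of 11 T-box and LIM-only genes, Bx, bi, H15 and mid had a peak (36.4%), all but bi near an end (27.3%). The median length of this list was 7102 bp. Like the other lists, it was chosen with earlier results of these data known, so nothing is read from its share. Only H15's peak (508 bp) met CYC.

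Among genes of neuronal signalling the shares lay on both sides of that of all genes (9.07%, and 7.02% near an end). Of 58 genes for small transmitters, with a median length of 13951.5 bp, 8 had a peak (13.8%), all near an end. They were Gad1, SerT and VGAT, of synthesis and transport, and the receptor genes Nmdar2, nAChRalpha3, nAChRalpha5, mAChR-B and Octbeta3R. The nAChRalpha5 midpoint was 9.5 bp from an end, Gad1 had 2 peaks, and only the SerT peak (410 bp) met CYC. The midpoint of that peak lay 675 bp from the end of SerT and closer to ends of CG45069 and PIG-Z. Of 39 peptide receptor genes, with a median length of 17421 bp, 4 had a peak (10.3%, near the share of all genes). They were sNPF-R, CCHa2-R, AstC-R1 and TrissinR, and only the peak of sNPF-R (515 bp, 14.5 bp from an end) met CYC. Of 45 peptide genes, ITP and Nplp1 had one (4.44%, below the share of all genes), and that of ITP was at the very edge of the window (999.5 bp). Of 45 channel genes, with a median length of 15367 bp, 7 had a peak (15.6%) and 5 near an end (11.1%). They were the potassium channel genes Sh, Shab and KCNQ, the Shaker subunit gene Hk, Mid1 and the pair Teh2 and Teh4, which shared 1 peak. Of 32 synapse genes 7 had one (21.9%), but only futsch and Nlg4 near an end (6.25%). In brp, Rim, Syn, Syt1 and cpx the peak was 2453 to 12606.5 bp from an end, and the median length of this list was 26018.5 bp.

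The neural RNA-binding list showed the same pattern, with 6 of 21 members hit (28.6%, against 9.07% of all genes). Near an end was 1 (4.76%, against 7.02%), and the median length was 53310 bp. The end site was that of mbl (2R 17215968 to 17216692, 724 bp). Of 29 genes of sleep and behavioural output, with a median length of 12725 bp, 7 had a peak (24.1%). They were Atx2, Sh, Slob, Pka-R2, Mid1, CycA and inc, with the peaks of the last 3 near an end (10.3%). Slob, which encodes a partner of the Slowpoke channel, held the only one that met CYC. The inc site was also near Nmdar2 and sta, a ribosomal protein gene. Of 22 Notch, EGF and FGF genes, with a median length of 17967 bp, 7 had a peak (31.8%). Those near an end were 5 (22.7%), namely Su(H), htl, ru, sty and vn. Of 35 genes of Hedgehog, Wnt and BMP signalling 7 had a peak (20.0%), with 2 each in dpp, fz2 and shn. Near an end 3 had one (8.57%, near the share of all genes), and the median length was 13588 bp.

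The metabolic lists had shares above the 9.07% of all genes when peaks inside genes were counted. In the insulin and energy list, SNF4Agamma, Sik3, ImpL2 and Thor, the 4E-BP gene, had peaks (4 of 26, 15.4%), with only Thor near an end (259 bp, 34.5 bp from it, 3.85% of the list against 7.02% of all genes). Among 28 lipid genes, with a median length of 6270.5 bp, 5 had a peak (17.9%) and 3 near an end (10.7%). Both subunit genes of serine palmitoyltransferase, lace (469 bp) and Spt-I (352 bp), had a peak near an end, as did the sphingosine kinase gene Sk2 (211 bp). ACC and Lpin held theirs inside. Only those of lace and Lpin met CYC. Of 19 redox genes 3 had a peak (15.8%) and 2 near an end (10.5%), with a median length of 1832 bp. The thioredoxin gene Trx2, the reductase gene Trxr1 (2 peaks, the wider of 591 bp) and cnc were these.

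Several large gene families, among them some of environmental response, had few CLK sites in head. Some of them hold short genes, with median lengths of 983 bp for cuticle protein and 529 bp for histone genes. For cytochrome P450 genes the median was 2102 bp, close to the 2163 bp of all protein-coding genes. A peak was found at 3 of 85 genes named Cyp with a number (3.53%). Of these 3, Cyp4d20 and Cyp6a13 are cytochrome P450 genes, while Cyp1 encodes a cyclophilin. Peaks were also found at 2 of 117 cuticle protein genes (1.71%) and 1 of 51 odorant-binding protein genes (Obp99b, 507 bp). None of 60 odorant receptor genes, which had a median length of 1466.5 bp, had a peak. Of 45 immune genes spz and PGRP-LA had one (4.44%), and of 116 histone genes His2Av had one (0.862%). Cytosolic ribosomal protein genes had 6 of 93 (6.45%), all near an end and none met by CYC. Of 35 UDP-glycosyltransferase genes 5 had a peak (14.3%, above the share of all genes), through only 3 peaks. Lists for other tissues had 2 of 29 spermatocyte and spermatid genes (6.90%) and 2 of 26 eggshell and oocyte genes (7.69%). Their median lengths were 2074 and 1776.5 bp. Genes known only by a CG number had 388 of 6097 (6.36%). Counted over genes of all biotypes, where 8.08% had a peak in the gene or within 1 kb, 12 of 260 miRNA genes (4.62%) and 5 of 295 tRNA genes and pseudogenes (1.69%) did.

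The remaining lists stand beside the same shares of all genes, 9.07%, and 7.02% near an end. Of 38 axon guidance and adhesion genes 8 had a peak (21.1%) and 5 near an end (13.2%). Those near an end included the Robo receptor genes robo2 and robo3, NetA and Sema2b. The median length of this list was 44493.5 bp. Of all genes of 5000 bp or longer 17.8% had a peak and 10.4% had one near an end. The dpr, DIP, beat and side genes, which encode neuronal surface proteins, had 7 of 54, all near an end. Glial genes had 4 of 17 (23.5%) and 2 near an end (11.8%), with the glutamate transporter gene Eaat1 (426 bp) 21 bp from an end. Eye pigment genes had 3 of 18 (w, cn and p), ecdysone and juvenile hormone genes 3 of 25 (Eip74EF, Eip75B and Eip93F), spliceosome genes 4 of 28 (Brr2, Prp16, Prp38 and SmF) and chromatin regulator genes 2 of 34 (Bap60 and brm). Glutathione S-transferase genes had 4 of 35 (11.4%, near the share of all genes), of which GstE5, GstE6 and GstE7 shared 1 peak. Mitochondrial ribosomal protein genes had 2 of 73 (2.74%), proteasome genes 2 of 48 (4.17%) and heat shock genes 2 of 27 (7.41%, near the share of all genes). Jonah protease genes had 1 of 16 (6.25%), and trypsin and serpin genes 1 of 38 (2.63%). Gustatory and ionotropic receptor genes had 1 of 60 each (1.67%), and tetraspanin and pickpocket genes none of 34 and of 29.

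**Figure D5:**
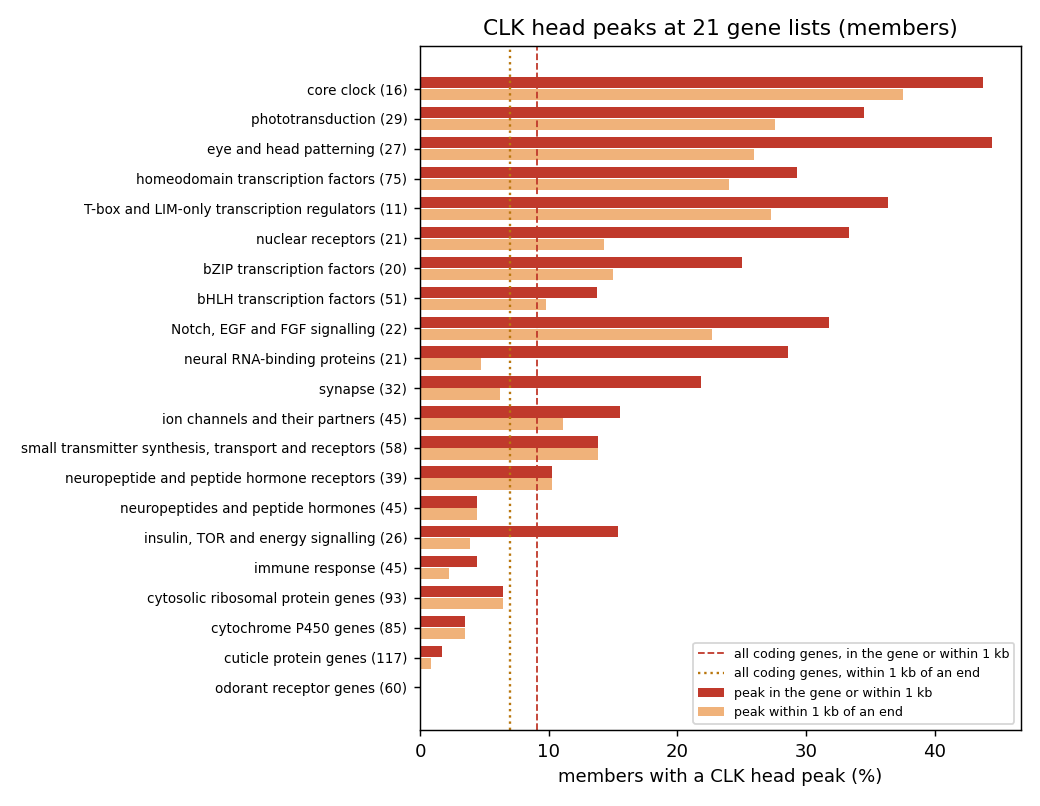
Share of the members of 21 gene lists with a CLK head peak (%, horizontal axis), counted in the gene or within 1 kb (red bars) and only within 1 kb of an end (orange bars); numbers of members are in brackets and the lines mark all coding genes (9.07 and 7.02%). Among others, the bars of the core clock, phototransduction, eye and head patterning and homeodomain lists stand right of both lines under both rules, while those of synapse, neural RNA-binding and insulin, TOR and energy genes do so only when peaks inside genes are counted. The lists were chosen with earlier results of these data known, and no share was tested.

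A few lists, picked after their values were seen, were set beside CYC in head and CLK in testis, counting gene ends alone. In those lists 3.38 and 11.7% of all protein-coding genes had a peak near an end, against 7.02% for CLK in head. Core clock genes numbered 6 of 16 for CLK in head, 4 for CYC in head and 1 for CLK in testis. Phototransduction genes numbered 8, 1 and 5 of 29, homeodomain genes 18, 5 and 5 of 75, and eye and head patterning genes 7, 0 and 2 of 27. T-box and LIM-only genes numbered 3, 1 and 3 of 11, as many in testis as in head. Among odorant receptor genes the counts were 0, 0 and 8 of 60, and among cuticle protein genes 1, 1 and 15 of 117. When peaks inside core clock genes were counted too, CLK in testis had 4 peaks at Clk and 1 each at cyc, tim and tws. By that rule CLK in ovary had 2 peaks at Clk and 1 at Pdp1, and CYC in head had peaks at Pdp1, vri, per, tim and dco. The differences between the lists for these genes were not tested.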

How the data were processed

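Per the labels' protocols, heads were fixed in 1% formaldehyde, chromatin was sheared to 100 to 500 bp, 5% was kept as input and the rest was incubated with an antibody against GFP. The submitters' processing notes name in no given order MACS2, fastp, ChIPseeker, deepTools, Bowtie2, SAMtools and Picard, with dm6 as build. Their versions and settings, the peak threshold and the handling of replicates were not stated. The authors deposited, for each protein and tissue, 1 list of peaks with 3 columns (chromosome, start, end). Lists were matched to tissues by the initial in their names. Starts may be counted from 0 or 1.

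Midpoints were compared with 13922 protein-coding genes (17684 of all biotypes) on X, 2L, 2R, 3L, 3R and 4 in the RefSeq table of Release 6 plus ISO1 MT, and peaks on contigs were left out of shares by class and arm. Overlap meant 1 bp. Fisher's exact tests (SciPy 1.17.1) were adjusted by Benjamini-Hochberg over 18 comparisons of class, arm and width, and over 2 of overlap with CYC, with a threshold of 0.05. The code was tested on simulated peaks with known classes. Of 919 symbols in 29 lists, 910 matched a gene, and 21 more lists were made from name patterns; symbols that did not match were not analysed here.

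The members and gene lists were chosen with earlier results of these data known. Named genes were those of the 15 widest peaks, genes with 4 or more peaks, list members with a peak, and the 10 widest peaks met by CYC in head or by CLK in the gonads. No genome sequence was given, so no sequence is printed and the planned search for the E-box motif was not run. Alternatives were windows of 500 bp and 3 kb, all biotypes, the widest 50%, other overlap rules, widths and gene assignments. Added after seeing the data were X among gene-end peaks and removal of core clock peaks.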

Additional observations from a re-analysis of the deposited data

How the results depend on the processing

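Of the comparisons between lists and kinds of peaks, 61 alternative values kept their direction and side of the threshold, 7 lost the call, 1 gained it and 4 turned. All differences are CLK head minus the other list, in percentage points, with Fisher's exact test. A window of 3 kb turned the gene-end difference from CLK in testis to -2.62 points, the inside-gene difference to 5.99 and that for 2 or more ends to -5.88; the inside-gene difference from CLK in ovary (-4.67) and the intergenic difference from CYC (0.855) no longer passed. Genes of all biotypes (-5.12) and the widest 50% (-7.21) ended the gene-end call against CYC, and the widest 50% ended the intergenic one (2.96). With 800 bp as the limit for a wide peak, the difference from CLK in testis was -0.250 points, and neither it nor the main value passed. For overlap with CYC, the difference by width no longer passed with midpoints within 200 bp (4.66) or, in an alternative chosen after seeing the data, without core clock peaks (3.81), and the difference by site class passed with reciprocal overlap of 50% (-4.62). The causes were not tested. Of the counts of list members, 63 stayed within 1.5 times and 33 moved further.

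No paired analysis was possible because each list holds the peaks of both replicates together, and no replicate was left out for the same reason. The comparison of the E-box motif in promoters and its alternatives were not run, since no promoter sequence was used here. Without peak heights or read depth, a site missing from a list is not shown to be unbound.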

Other observations

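Closely spaced CLK sites in head were also found away from the clock genes. Steps of 5 kb or less joined 49 peaks into 13 groups of 3 or more. One group of 5 peaks spanned 7.78 kb at Sidpn and CG15172 (2L 19019592 to 19027765), and one of 4 peaks lay at mamo (X 13986455 to 13995232). No peak of the Sidpn group met a CYC head peak. These groups were picked out after their values were seen.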
